A study of Mus musculus with 4 samples.

Results

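Cathepsins are the proteases of lysosomes and endosomes, and the 10 genes described here are Ctsa, Ctsb, Ctsc, Ctsd, Ctse, Ctsh, Ctsk, Ctsl, Ctss and Ctsz, taken by symbol from the authors' deposited comparisons. All 10 were listed in both comparisons, among 15310 genes in stimulated and 15394 genes in unstimulated cells (15881 in either). The cells were dendritic cells grown in culture from bone marrow of C57BL/6 mice aged 8 weeks. GOLPH2-/- cells (KO) and wild-type cells (WT) were compared after IFN-gamma for 16 h followed by LPS for 4 h, and again without stimulation. GOLPH2 is a Golgi membrane protein encoded by Golm1. Each of the 4 groups (KO stimulated, WT stimulated, KO unstimulated, WT unstimulated) was 1 library, so no difference has a replicate check. The labels do not say how the Golm1 allele was made, how the cultures were grown or how many mice gave cells.

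Cathepsins are made as inactive proenzymes, pass through the Golgi, are carried to endosomes by mannose 6-phosphate receptors and other sorting receptors, and are activated by cleavage in the acidic lumen. They fall into cysteine, aspartic and serine proteases. In dendritic cells they cut antigens into peptides and remove the invariant chain (Cd74) from class II molecules, and they cleave the endosomal Toll-like receptors into their signalling form. Cystatins, stefins and some serpins hold leaked or secreted cysteine cathepsins in check.

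The stretches upstream of the start of Ctss, Ctsd and Ctsc are shown because these genes carried different matches to 2 short motifs searched on both strands (Ctsc none) and lay on different sides of an even KO over WT ratio. Capitals mark CACGTG, the E-box core read by the TFEB and MITF family, and the pair GAAA and GAAA with 2 bases between, the core of interferon response elements. The sequences are from RefSeq (GRCm38.p6), written 5′ to 3′ on the strand of the gene and ending at the base before the most upstream start: chr3:95526536-95526785 (plus strand) for Ctss, chr7:142387828-142388077 (minus strand) for Ctsd and chr7:88277835-88278023 (plus strand) for Ctsc.
Ctss: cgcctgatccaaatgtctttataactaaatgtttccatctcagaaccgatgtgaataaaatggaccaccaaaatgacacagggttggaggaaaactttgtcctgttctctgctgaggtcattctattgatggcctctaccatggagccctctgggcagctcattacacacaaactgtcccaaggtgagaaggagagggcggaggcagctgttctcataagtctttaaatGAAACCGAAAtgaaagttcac
Ctsd: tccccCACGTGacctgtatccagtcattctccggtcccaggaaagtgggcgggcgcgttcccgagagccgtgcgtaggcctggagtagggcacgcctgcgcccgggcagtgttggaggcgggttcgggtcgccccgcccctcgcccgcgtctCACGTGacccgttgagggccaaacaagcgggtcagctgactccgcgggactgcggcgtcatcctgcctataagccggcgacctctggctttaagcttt
Ctsc: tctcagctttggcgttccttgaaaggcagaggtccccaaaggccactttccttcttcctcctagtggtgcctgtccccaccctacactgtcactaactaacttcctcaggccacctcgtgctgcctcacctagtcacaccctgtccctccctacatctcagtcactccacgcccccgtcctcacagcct

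Promoter windows of 300 bases (250 before and 50 after a start) were on hand for 7 of the 10 genes, 8 windows in all, and were compared with 32851 windows of all genes. CACGTG was present in windows of Ctsa, Ctsd and Ctsl (3 of 8 windows) and in 7.15% of all windows. The Ctsd window held it at 98 and 245 bases before the start, as shown above. The matches of Ctsa and Ctsl lay inside the annotated gene, by a start downstream of the most upstream one. In the ratios given below, Ctsa and Ctsl lay above an even ratio in both states and Ctsd below it. Members with CACGTG were thus found on both sides. The spaced GAAA pair was present in the Ctss window alone among the members, beginning 21 bases before the start, and in 3.44% of all windows. The interferon-gamma activated core, TTC and GAA with 3 bases between, was in the Ctsc window among the members and in 8.3% of all windows. These matches describe letters in a window and not bound sites, and none was set against a measurement of binding.

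Values per library were not analysed here, so each gene is given as a log2 ratio of KO over WT with a counting standard error (SE) read back from the authors' p-value. That SE covers the sampling of reads and not the spread between cultures. Ratios were centred on the value at which the authors' test gives no difference, a deposited log2 ratio of −0.04 in stimulated and 0.19 in unstimulated cells. A gene is called where the Benjamini-Hochberg adjusted p, computed from the authors' deposited p-values over all genes of that comparison, was under 0.001, and such a call compares 2 libraries and not 2 genotypes. The labels were first checked on Golm1, which was at −2.00 ± 0.10 in stimulated cells (25.0% of WT) and at −2.09 ± 0.098 in unstimulated cells (23.5% of WT). Of 17 listed dendritic cell markers, 16 were in both comparisons, among them Itgax, Flt3, Zbtb46 and H2-Aa. In bulk RNA, fewer cells of a type and less RNA per cell cannot be told apart.

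Most cathepsin transcripts were slightly more abundant in the KO library in both states, Ctsc was less abundant, and no member differed by 1.5-fold. In stimulated cells 6 of 10 members were called higher (Ctsl, Ctss, Ctsz, Ctsk, Ctsb and Ctsa) and 2 lower (Ctsc and Ctsd), where 11.9% of all genes were called, 5.36% higher and 6.54% lower. In unstimulated cells 6 of 10 were called higher (Ctsl, Ctsb, Ctsh, Ctss, Ctsz and Ctsa) and the same 2 lower, where 8.96% of all genes were called, 4.7% higher and 4.27% lower. The median member stood at 0.13 in stimulated and 0.09 in unstimulated cells, and the median of all genes at 0.01 in stimulated and 0.00 in unstimulated cells. Abundant transcripts reach the threshold at smaller differences, and 9 of the 10 members had an SE as small as that of 1000 reads in each library, or smaller, in either state. Among all genes with an SE within that limit, 26.9% were called in stimulated cells (12.2% higher, 14.7% lower) and 19.5% in unstimulated cells (10% higher, 9.42% lower). The limit is an SE of 0.065, and the largest SE among these 9 members was 0.029 (Ctsk, stimulated). Those genes are therefore not matched to the members in precision, and how often genes as precise as the members were called was not tested.

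**Figure D1:**
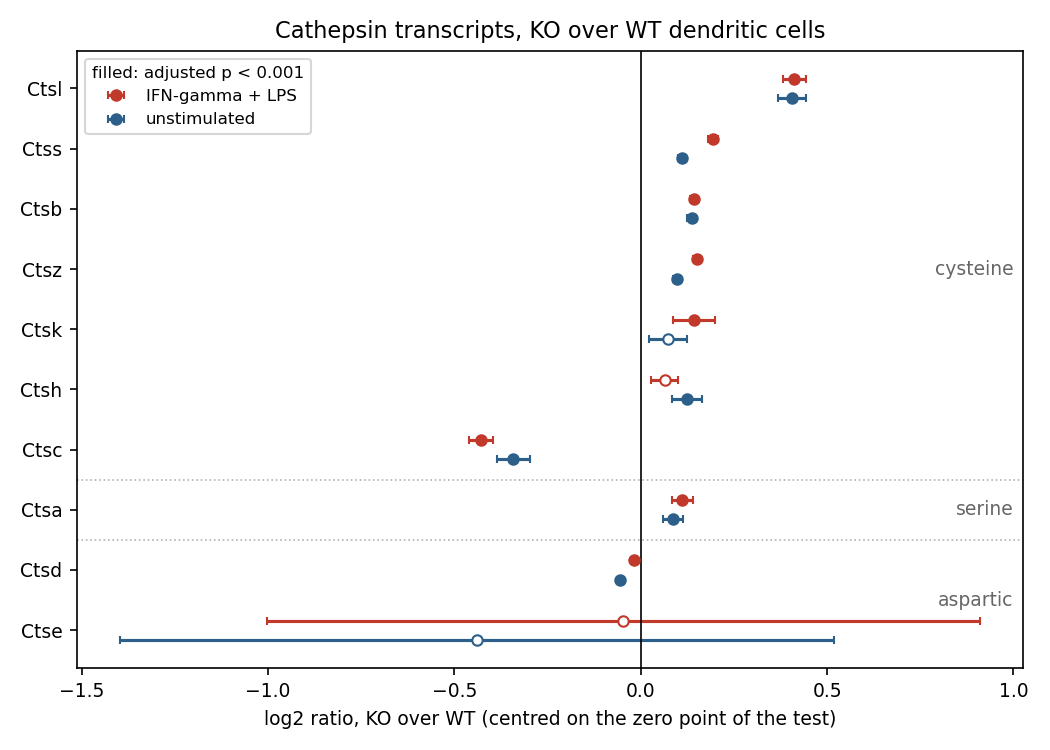
Log2 ratio of KO over WT for the 10 cathepsins, grouped by catalytic class, in stimulated (red) and unstimulated (blue) cells. Bars are 95% intervals from the counting SE and filled points are called. Ctsl lies farthest to the right at about 0.41, Ctsc lies to the left at −0.43 in stimulated and −0.34 in unstimulated cells, and the bars of Ctse cross 0.

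By size rather than by counting error, the share of members at 1.2-fold or more was close to that of all genes, most of which are less precisely measured. At 1.2-fold or more, 2 of 10 members were different in stimulated cells (Ctsl higher, Ctsc lower), against 28.4% of all genes, and 3 of 10 in unstimulated cells (Ctsl higher, Ctsc and Ctse lower), against 26% of all genes. Ctse has a wide error. Of the 9 members with an SE no larger than that of 1000 reads, Ctsl and Ctsc reached 1.2-fold in each state. Among all genes within that SE limit, 7.23% in stimulated and 4.71% in unstimulated cells reached 1.2-fold. At 1.5-fold no member counted, against 13.7% of all genes in stimulated and 13% in unstimulated cells. Ctsl and Ctsc are therefore the members with a difference of size that is also well measured.

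**Figure D2:**
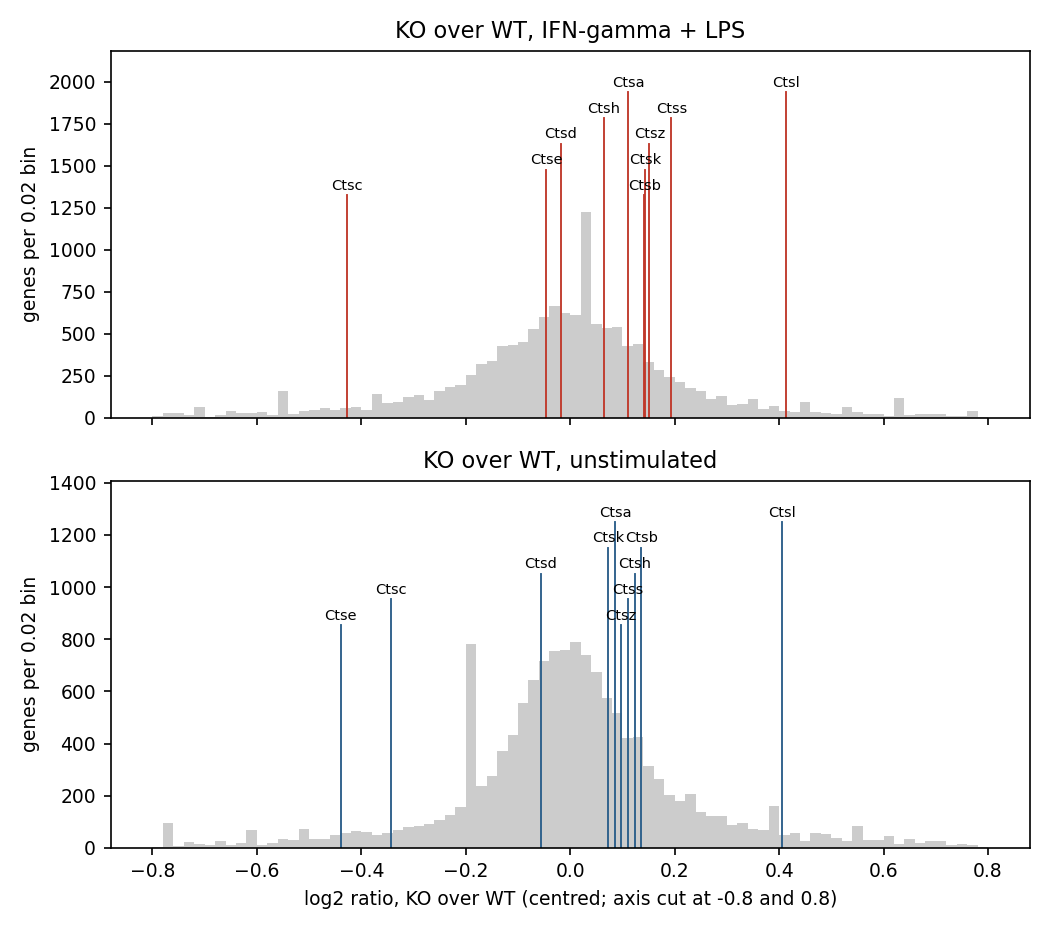
Number of genes at each centred log2 ratio of KO over WT (grey, bins of 0.02), for stimulated cells above and unstimulated cells below, with a line for each cathepsin (its height is for labelling only). Ctsl exceeds 90.7% of all genes in stimulated and 90.0% in unstimulated cells, Ctsc exceeds 9.65% in stimulated and 9.24% in unstimulated cells, and the other well-measured members lie between them. A narrow spike of genes whose deposited ratio is exactly 0 stands in each panel.

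Among the 7 cysteine cathepsins, 5 were called higher and 1 lower in each state. Ctsl (chromosome 13, 64361890 to 64370772, GRCm38, minus strand, protein-coding) encodes cathepsin L, a broad endopeptidase that in the mouse removes the invariant chain in thymic epithelium. Its ratio was 0.41 ± 0.016 in stimulated cells, which is 1.33 times the WT level, and 0.40 ± 0.019 in unstimulated cells, 1.32 times the WT level. Both SE values are upper limits, since the authors' p-value reached the highest value written in their comparison. The ratios of both states differed by 0.01 ± 0.025. Ctsl was the single member that the authors marked as differentially expressed, in unstimulated cells, and the mark rests on the ratio as deposited (0.60 in the authors' deposited table, 1.51-fold).

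Ctsl lies on the same chromosome as the targeted gene, 4.69 Mb from Golm1 (chromosome 13, 59634996 to 59675784, minus strand). The genes within 5 Mb of Golm1, Golm1 left out, include Ctsl, which was called in both states. Of them, 8 of 75 (10.7%) were called in stimulated cells and 3 of 76 (3.95%) in unstimulated cells. Among all genes, 11.9% were called in stimulated and 8.96% in unstimulated cells. The median ratio of the genes near Golm1, Ctsl included, was −0.03 in stimulated and −0.01 in unstimulated cells. Whether the knockout chromosome differs from WT in sequence there was not tested.

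Ctsc (chromosome 7, 88278024 to 88315861, plus strand) encodes cathepsin C or dipeptidyl peptidase I, which activates the serine proteases of immune granules by trimming their amino ends. It was the member with the clearest lower ratio, at −0.43 ± 0.016 in stimulated cells, 74.3% of the WT level, and at −0.34 ± 0.023 in unstimulated cells, 78.9% of the WT level. The difference between the states was −0.09 ± 0.028. Of its listed granule protease substrates, 1 of 6 was called higher in stimulated cells (Gzmb, 0.68 ± 0.15) and 1 of 9 in unstimulated cells (Gzma, 0.86 ± 0.16), and 0 were called lower in either. Over all genes, 11.9% were called in stimulated cells (5.36% higher) and 8.96% in unstimulated cells (4.7% higher). With 1 call in so short a list, the count does not show whether the substrates stand out. Gzma stood at 0.66 ± 0.18 in stimulated and Gzmb at 0.39 ± 0.15 in unstimulated cells, neither of them called. The granzymes encode killing proteases of lymphocyte granules.

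Ctss and Ctsk are neighbours on chromosome 3, 17.4 kb apart (95526786 to 95556405 and 95499210 to 95509387, both plus strand). Ctss encodes cathepsin S, the main protease of invariant chain removal in dendritic cells, and its upstream stretch with the interferon element core is given above. Its ratio was 0.19 ± 0.0074 in stimulated and 0.11 ± 0.0052 in unstimulated cells, both SE values being upper limits. The difference of 0.08 ± 0.0090 between the states was at least 9.18 times its counting SE. Ctsk encodes cathepsin K, the collagen-cutting protease of osteoclasts. It was called in stimulated cells (0.14 ± 0.029) and not in unstimulated cells (0.07 ± 0.026), and the difference between the states, 0.07 ± 0.039, was within 2 counting SE. With a Bonferroni adjustment it was not called in stimulated cells either.

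Some markers of cells that also express Ctsk were called between the same libraries. Of 10 osteoclast markers, 4 were called higher and 0 lower in each state. Among all genes, 5.36% were called higher and 6.54% lower in stimulated cells, and 4.7% higher and 4.27% lower in unstimulated cells. The list median was 0.23 in stimulated and 0.00 in unstimulated cells. Ratios ran from −0.07 to 1.62 in stimulated and from −0.78 to 0.82 in unstimulated cells. Acp5, the tartrate-resistant acid phosphatase of osteoclasts and macrophages, was at 0.56 ± 0.021 (stimulated) and 0.44 ± 0.021 (unstimulated), upper limits of the SE in both, and Ocstamp, which takes part in osteoclast fusion, at 0.37 ± 0.085 (stimulated) and 0.82 ± 0.096 (unstimulated). Calcr, the calcitonin receptor of mature osteoclasts, was not called in either state. It gave the highest ratio in stimulated cells (1.62 ± 1.55) and the lowest in unstimulated cells (−0.78 ± 1.30), both with a wide error. Of 15 fibroblast markers, 7 were called higher and 2 lower in stimulated cells (ratios from −0.74 to 6.27), and 4 higher and 0 lower in unstimulated cells (from −0.40 to 3.06). The part of these cells in the Ctsk ratio was not tested.

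Ctsb (chromosome 14, 63122462 to 63145923, plus strand) encodes cathepsin B, which acts both inside chains and on their carboxyl ends. Its ratio was 0.14 ± 0.0054 in stimulated and 0.14 ± 0.0064 in unstimulated cells, upper limits of the SE in both, so the KO library held 1.10 times the WT level in each state. Ctsz (chromosome 2, 174427494 to 174439039, minus strand) encodes cathepsin Z, also named cathepsin X, a carboxypeptidase. It stood at 0.15 ± 0.0058 in stimulated cells, again an upper limit of the SE, and at 0.10 ± 0.0056 in unstimulated cells. Ctsh (chromosome 9, 90054267 to 90076095, plus strand) encodes cathepsin H, an aminopeptidase. It was called in unstimulated cells (0.12 ± 0.020) and not in stimulated cells (0.06 ± 0.018), with a difference of −0.06 ± 0.027.

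Ctsa (chromosome 2, 164832872 to 164841032, plus strand), the serine carboxypeptidase of the set, was called higher in both states, at 0.11 ± 0.014 in stimulated and 0.09 ± 0.014 in unstimulated cells. Its protein also shields the lysosomal enzymes encoded by Neu1 and Glb1. Neither partner gene was called in either state. In the annotation Ctsa overlaps Pltp and Neurl2, Ctsb overlaps Fdft1 and Ctsz overlaps Nelfcd, each on the opposite strand, and whether the counting used strand was not stated in the labels. None of these 4 overlapping genes was called in either state. Ctsl overlaps an antisense gene and a pseudogene, and Ctsc a non-coding gene on the opposite strand. On their own strand Ctsd overlaps the protein-coding gene Gm49369 and Ctss the pseudogene Hmgb1-ps5. The share of reads from these genes was not tested.

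The aspartic proteases gave 1 member of high and 1 of low precision. Ctsd (chromosome 7, 142375910 to 142387827, minus strand) encodes cathepsin D, a main lysosomal protease that also cuts prosaposin. It was called lower in both states by very little, at −0.02 ± 0.0041 in stimulated cells (98.7% of WT) and −0.06 ± 0.0040 in unstimulated cells (96.2% of WT). Its SE is among the smallest of the members, and its direction depends on the zero point: as deposited, the unstimulated ratio in the authors' deposited table is 0.14. The stimulated call was lost with a Bonferroni adjustment. Ctse (chromosome 1, 131638314 to 131675507, plus strand) encodes cathepsin E, an endosomal aspartic protease. Its ratio of −0.05 ± 0.49 in stimulated and −0.44 ± 0.49 in unstimulated cells leaves 95% counting intervals of −1.003 to 0.91 in stimulated and of −1.40 to 0.52 in unstimulated cells, so a difference in Ctse was not detectable at this depth.

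The 2 comparisons share no library, and 7 members were called in both, each in the same direction, 5 higher (Ctsl, Ctss, Ctsb, Ctsz and Ctsa) and 2 lower (Ctsc and Ctsd). All 10 ratios had the same sign in both states. Of the 14823 genes in both comparisons, 5.19% were called in the same direction in both, and of the 5477 genes with an SE no larger than that of 1000 reads in both, 12.2%. The members other than Ctse lay well below that SE limit, so these genes are not matched to them in precision. Of the 811 genes called in both states, 94.9% had the same direction, so sharing a direction is the usual case among called genes. Whether the KO cultures of both states came from the same mice, and likewise the WT cultures, is not given in the labels.

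**Figure D3:**
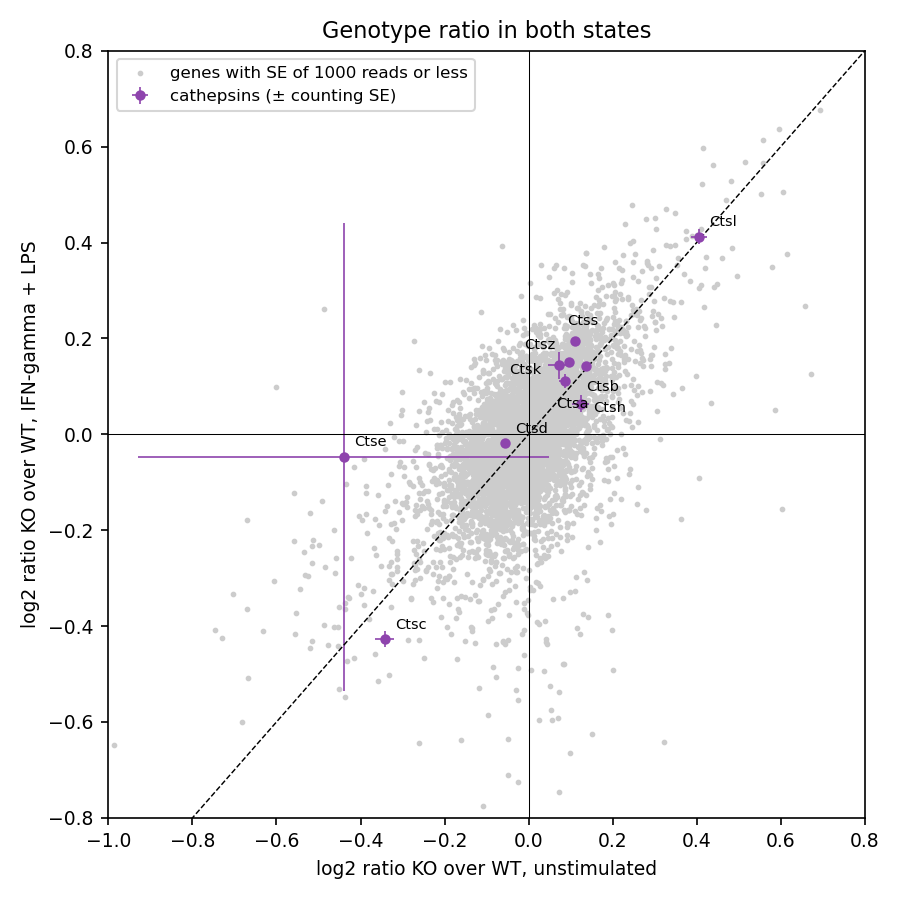
Centred log2 ratio of KO over WT in stimulated cells (vertical) against unstimulated cells (horizontal) for the 10 cathepsins (purple, bars of 1 counting SE) and for genes with an SE no larger than that of 1000 reads in both states (grey; genes outside the axes are not drawn). The dashed line marks equal ratios: Ctsl and Ctsb lie on it, Ctss and Ctsz above it, and Ctsc and Ctsh below it.

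The difference between the states, stimulated minus unstimulated, is the interaction the design implies and has no residual degrees of freedom. It exceeded 2 counting SE for 5 members, where SE values that are upper limits were taken at those limits. Precisely measured genes pass this cut at smaller differences. How often all genes pass it was not tested, so the count does not show whether the cathepsins stand out. The KO over WT ratio was higher in stimulated cells for Ctss (by 0.08), Ctsz (0.05 ± 0.0081) and Ctsd (0.04 ± 0.0057), and lower for Ctsc and Ctsh. For the other members it was within 2 counting SE taken the same way, as for Ctsa (0.03 ± 0.020), Ctsb (0.01 ± 0.0084) and Ctse (0.39 ± 0.69). All of these differences are smaller than the shift of the deposited scale between the states, except that of Ctse.

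Of the 13 other cathepsin genes listed, 3 were in both comparisons, Ctsf, Ctso and Ctsw. None of these was called in either state. Ctsf stood at −0.23 ± 0.13 in stimulated and −0.23 ± 0.11 in unstimulated cells, and Ctso at −0.05 ± 0.063 in stimulated and −0.02 ± 0.063 in unstimulated cells. Ctsw stood at −0.70 ± 0.46 in stimulated and −0.26 ± 0.45 in unstimulated cells. Ctsw is a cathepsin of cytotoxic lymphocytes.

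Among genes of cathepsin inhibitors, 2 of 16 were called higher and 1 lower in stimulated cells, and 4 of 14 higher and 0 lower in unstimulated cells, with list medians of 0.10 in stimulated and 0.13 in unstimulated cells. Over all genes, 5.36% were called higher and 6.54% lower in stimulated cells, and 4.7% higher and 4.27% lower in unstimulated cells. With an SE no larger than that of 1000 reads, 26.9% of genes were called in stimulated and 19.5% in unstimulated cells. Cst3 encodes cystatin C, the main secreted inhibitor of cysteine cathepsins, and was at 0.34 ± 0.013 (stimulated) and 0.27 ± 0.013 (unstimulated), upper limits of the SE in both. Serpina3g, a serpin known in the mouse to inhibit cathepsin B, was at 0.33 ± 0.041 in stimulated and 0.49 ± 0.059 in unstimulated cells. It belongs to a cluster of near-identical serpin genes, so reads may have been split with relatives such as Serpina3f (0.08 ± 0.059 in stimulated cells, not called, and 0.60 ± 0.13 in unstimulated cells, called). Serpinb1a, an inhibitor of neutrophil serine proteases, was called lower in stimulated cells (−0.29 ± 0.055) and was at 0.06 ± 0.077 in unstimulated cells. Serpinb6b was called in unstimulated cells (0.13 ± 0.028). Stefin A genes, also near-identical to each other, were not called. Cstb, the stefin B gene, was not called either, at 0.0006 ± 0.020 in stimulated and −0.06 ± 0.020 in unstimulated cells.

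Genes whose products work with cathepsins went both ways. Of 7 listed processing and partner genes, 2 were called higher and 1 lower in stimulated cells, and 3 higher and 2 lower in unstimulated cells. In either direction, 11.9% of all genes were called in stimulated and 8.96% in unstimulated cells. For genes with an SE no larger than that of 1000 reads the shares were 26.9% in stimulated and 19.5% in unstimulated cells. Lgmn encodes legumain, the asparaginyl endopeptidase that processes several cathepsins to their mature chains, and stood at 0.28 ± 0.017 in stimulated and 0.22 ± 0.014 in unstimulated cells. Ifi30 encodes the thiol reductase GILT, which opens disulfide bonds for proteolysis, and stood at 0.36 ± 0.024 (stimulated) and 0.28 ± 0.022 (unstimulated). Psap, which encodes the cathepsin D substrate prosaposin, was lower, at −0.07 ± 0.0028 (stimulated) and −0.10 ± 0.0046 (unstimulated, an upper limit of the SE). Galns (0.24 ± 0.045), a sulfatase found with Ctsa protein in a lysosomal complex, and Grn (−0.08 ± 0.017), the progranulin gene, were called in unstimulated cells alone. As deposited, Psap and Grn in unstimulated cells lay above 0, and all 5 called genes of the list were then higher. Of 7 other peptidases of endosomes and lysosomes, Lgmn included, 2 were called higher and 0 lower in each state, the second being Scpep1 (0.10 ± 0.019) in stimulated and Napsa (0.11 ± 0.025) in unstimulated cells.

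Of 19 listed genes that sort enzymes to lysosomes, 3 were called lower in each state, with 2 higher in stimulated and 1 higher in unstimulated cells. Among all genes, 6.54% were called lower in stimulated and 4.27% in unstimulated cells, and among those as precise as 1000 reads, 14.7% in stimulated and 9.42% in unstimulated cells. The 3 lower sorting genes were Sort1, which encodes the sorting receptor sortilin (−0.30 ± 0.069 stimulated, −0.30 ± 0.054 unstimulated), M6pr, the cation-dependent mannose 6-phosphate receptor (−0.10 ± 0.015 stimulated, −0.16 ± 0.015 unstimulated), and Scarb2, the receptor of glucocerebrosidase (−0.17 ± 0.026 stimulated, −0.14 ± 0.023 unstimulated). Igf2r, the large mannose 6-phosphate receptor, was not called. Ap1b1, a subunit of the AP-1 adaptor of Golgi vesicles, was higher at 0.17 ± 0.036 (stimulated) and 0.23 ± 0.031 (unstimulated), and Ap1s1 (0.16 ± 0.034) was called in stimulated cells. With the ratios as deposited, 1 sorting gene was lower and 3 higher in unstimulated cells. The list median was −0.01 in stimulated and 0.01 in unstimulated cells.

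**Figure D4:**
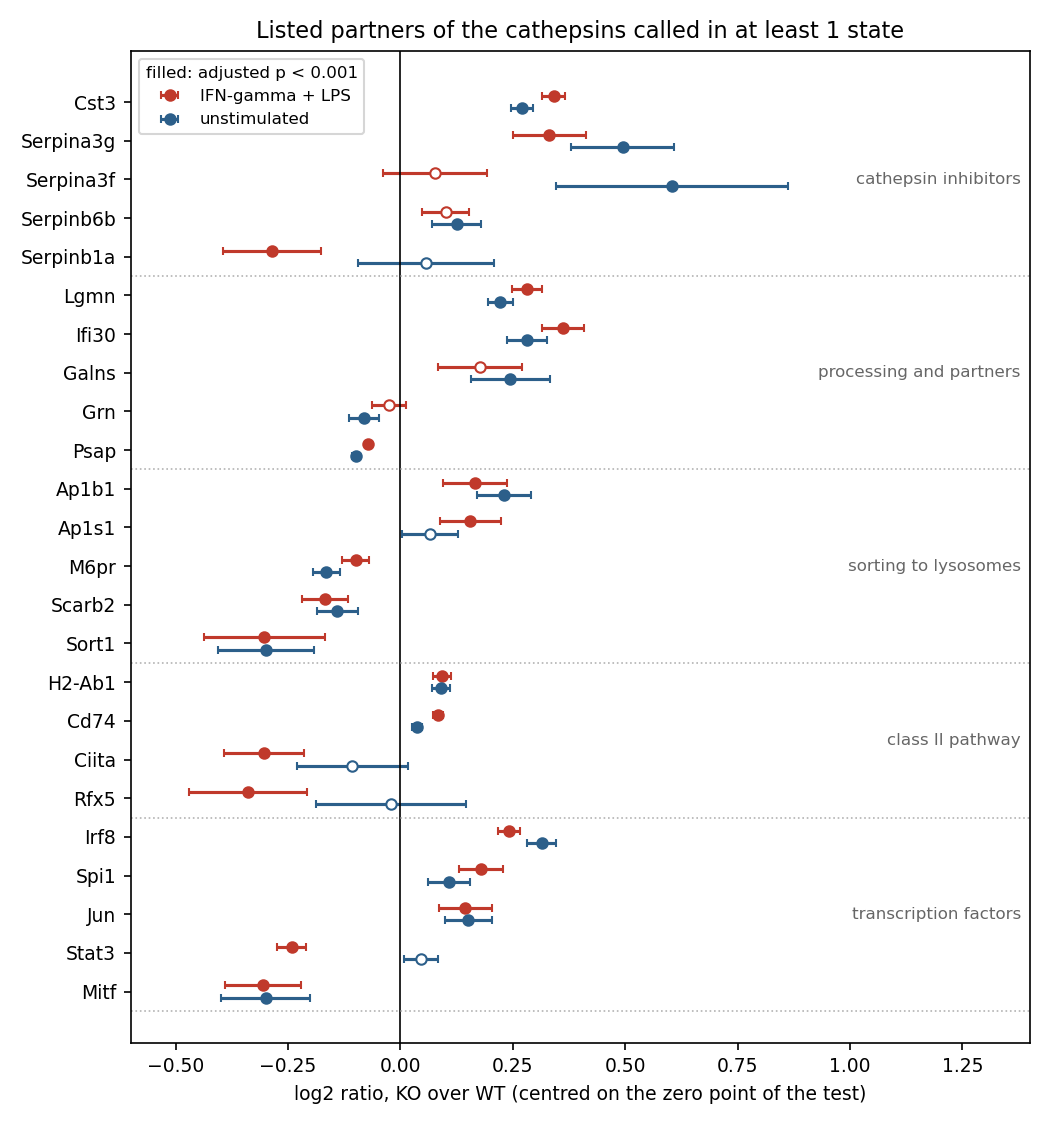
Centred log2 ratio of KO over WT for listed inhibitors, partners, sorting genes, class II genes and transcription factors that were called in at least 1 state, in stimulated (red) and unstimulated (blue) cells, with 95% counting intervals as bars and filled points for calls. Cst3, Lgmn, Ifi30 and Irf8 lie to the right in both states, and Sort1, M6pr, Scarb2 and Mitf to the left in both.

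In the class II pathway, where Ctss and Ctsl act, 2 of 14 listed genes were called higher and 2 lower in stimulated cells, and 2 higher and 0 lower in unstimulated cells. Cd74, the invariant chain and substrate, was at 0.08 ± 0.0057 (stimulated) and 0.04 ± 0.0057 (unstimulated), and H2-Ab1, a class II beta chain, at 0.09 ± 0.010 (stimulated) and 0.09 ± 0.010 (unstimulated). The regulators Ciita (−0.30 ± 0.045) and Rfx5 (−0.34 ± 0.067) were called lower in stimulated cells and not in unstimulated cells (−0.11 ± 0.063 and −0.02 ± 0.085). The endosomal Toll-like receptor list held 8 genes, chaperone and transport genes included. In stimulated cells Tlr3 (−0.98 ± 0.11) and Tlr7 (−0.38 ± 0.097) were called lower and the chaperone gene Hsp90b1 (0.08 ± 0.016) higher. In unstimulated cells Tlr8 alone of this list was called, and it was higher (0.46 ± 0.079). Calls covered 11.9% of all genes in stimulated and 8.96% in unstimulated cells.

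Of 11 transcription factors of lysosomes, osteoclasts and myeloid cells, 3 were called higher in each state, with 2 lower in stimulated and 1 lower in unstimulated cells. The shares over all genes were 5.36% higher and 6.54% lower in stimulated cells, and 4.7% higher and 4.27% lower in unstimulated cells. For genes with an SE no larger than that of 1000 reads they were 12.2% and 14.7% (stimulated), and 10% and 9.42% (unstimulated). Irf8, a factor of dendritic cell identity, was at 0.24 ± 0.013 (stimulated) and 0.31 ± 0.017 (unstimulated), Spi1, which encodes PU.1, at 0.18 ± 0.025 (stimulated) and 0.11 ± 0.024 (unstimulated), and Jun at 0.14 ± 0.030 (stimulated) and 0.15 ± 0.026 (unstimulated). Mitf, a reader of the CACGTG core that drives Ctsk in osteoclasts, was lower at −0.31 ± 0.043 (stimulated) and −0.30 ± 0.050 (unstimulated), and Stat3 was lower in stimulated cells (−0.24 ± 0.017). Tfeb and Tfe3, the lysosomal regulators of the same family as Mitf, were not called. Of 13 membrane proteins of lysosomes, 6 were called higher and 2 lower in stimulated cells and 2 higher and 2 lower in unstimulated cells, with the ratios farthest from 0 in stimulated cells for Cd68 (0.18 ± 0.018), Scarb2 (lower), Cd63 (0.15 ± 0.020) and Npc2 (0.13 ± 0.0057). In unstimulated cells Npc2 (0.14 ± 0.0064, an upper limit of the SE), Cd68 (0.11 ± 0.017), Scarb2 and the channel gene Mcoln1 (−0.18 ± 0.045) were called. With the ratios as deposited, Scarb2 and Mcoln1 were above 0 in unstimulated cells, and the count there was 4 higher and 0 lower.

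Some markers of other cells that express cathepsins were also called, where 11.9% of all genes were called in stimulated and 8.96% in unstimulated cells. Macrophage and monocyte markers (18 genes) had 6 higher calls and 4 lower calls in stimulated cells (ratios from −1.55 to 0.94), and 7 higher and 4 lower in unstimulated cells (from −2.19 to 0.999). The lowest ratio in each state was that of Cx3cr1 (−1.55 ± 1.10 stimulated, −2.19 ± 1.02 unstimulated), which was not called. Of 16 dendritic cell markers, 5 were called higher and 2 lower in each state. Itgax was among the higher, at 0.29 ± 0.017 (stimulated) and 0.32 ± 0.015 (unstimulated, an upper limit of the SE). The 2 lower in each state were Sirpa (−0.17 ± 0.013 stimulated, −0.23 ± 0.015 unstimulated) and Ly75 (−0.23 ± 0.020 stimulated, −0.17 ± 0.023 unstimulated). Neutrophil markers had 0 called higher and 1 of 7 lower in stimulated and 2 of 10 lower in unstimulated cells, among them Lcn2 (−0.24 ± 0.019 stimulated, −0.37 ± 0.025 unstimulated). The 7 B cell markers had 0 called in either state, with ratios from 0.03 to 1.36 in stimulated and from −0.61 to 1.05 in unstimulated cells. Of T and NK cell markers 0 of 8 were called in either state, and 1 erythroid marker of 3 was called higher (Car2) and 1 mast cell and basophil marker lower in each state (Hdc). The part of these cells in the cathepsin ratios was not tested.

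The scale of the authors' deposited table matters more for unstimulated than for stimulated cells. As deposited, 8 of the 10 cathepsins in unstimulated cells lay above 0, among them Ctsd, and their median was 0.28, where the median of all genes was 0.19. In stimulated cells the deposited median was 0.09, where that of all genes was −0.03. Both scales leave Ctsl highest and Ctsc lowest among the well-measured members.

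**Figure D5:**
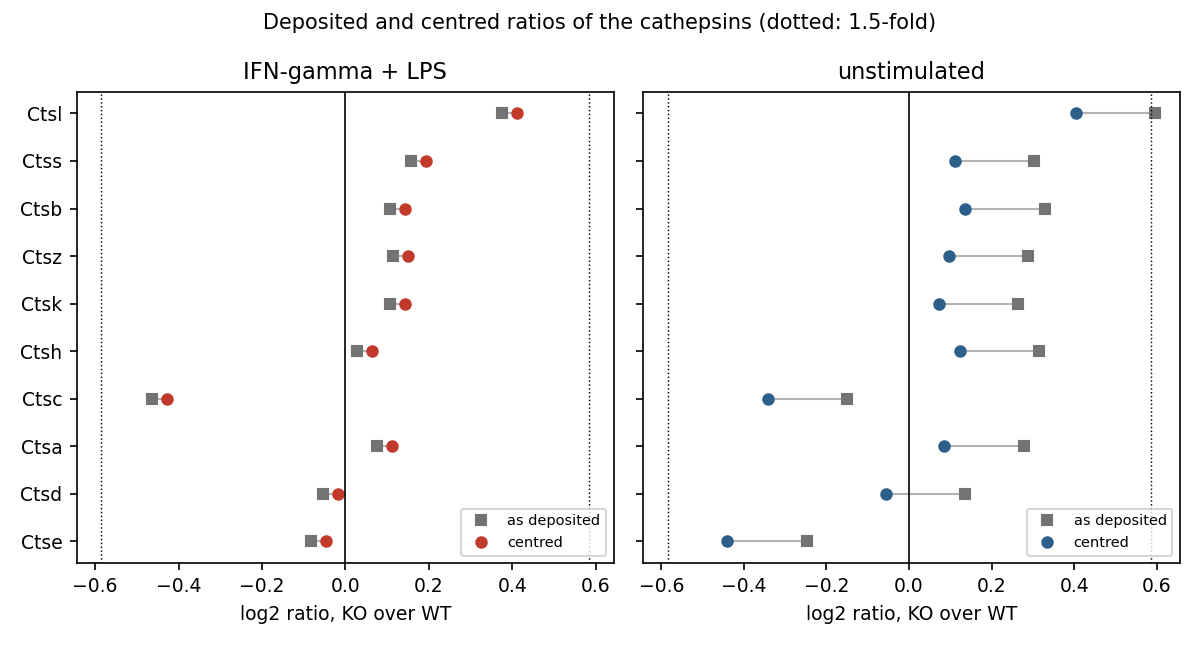
Log2 ratio of KO over WT of each cathepsin as deposited (grey squares) and centred on the zero point of the authors' test (circles), for stimulated cells on the left and unstimulated cells on the right, with dotted lines at 1.5-fold. In unstimulated cells Ctsl passes the dotted line as deposited and not after centring, and Ctsd changes side of 0.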

How the data were processed

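RNA sequencing of 4 libraries, 1 per group, was compared by the authors. Per the labels' protocols, RNA was column-purified and libraries were strand-specific TruSeq mRNA preparations. The submitters' processing notes name FastQC 0.10.1, HTSeq 0.6.0 and mm10; no source used here names the aligner, annotation, strand setting, scaling or test. The authors deposited a log2 fold change of KO over WT and a −log10 p-value per gene, capped at 150 (stimulated) and 100 (unstimulated). Groups came from sample titles.

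Each deposited log2 ratio was reduced by the zero point of the authors' test, the median ratio of genes with a deposited p above 0.99 (51 and 94 genes). The counting SE is the centred ratio divided by the normal deviate of the two-sided p. An SE equal to that of 50 or 1000 reads assumes equal reads in both libraries. Depth per library is unknown. The design assumed these 2 measures. The procedure was run on simulated data with noise drawn from the same counting SE and planted changes of 1.5-fold or more, which no member reached. Those data held no spread between cultures, so the run checks the arithmetic and not the calls made here. Positions and promoters are RefSeq GRCm38.p6, and overlaps GENCODE M21. Python 3.11.15, numpy 2.4.6, scipy 1.17.1, pandas 2.3.3 and matplotlib 3.10.9 were used.

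The members, lists and tests were chosen with earlier results of these data known. Genes named are all members, Golm1, and from each pathway list every called gene, or the 4 with the largest ratios where over 5 were called, with direct activators, inhibitors and substrates. Other genes named without a ratio, marker genes, overlapping genes and Gzma and Gzmb in both states were chosen after their values were seen. Alternatives were the deposited ratios, centring on the median gene, other thresholds and filters on precision.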

Additional observations from a re-analysis of the deposited data

How the results depend on the processing

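The number of cathepsins called stayed within 1.5 times at an adjusted p under 0.05, over genes with an SE no larger than that of 50 reads, and with the ratios centred on the median gene. By a 1.2-fold rule with no p, it was 2 in stimulated cells (1 higher, 1 lower) and 3 in unstimulated cells (1 higher). With a Bonferroni adjustment 5 were higher and 1 lower in stimulated cells, and with the ratios as deposited 1 was lower in unstimulated cells. As deposited, the median member was at 0.091 in stimulated and 0.28 in unstimulated cells, and the median difference between the states at −0.20, against 0.03 when centred. Over members with an SE no larger than that of 50 reads, the stimulated median was 0.14. On the deposited scale Ctsd was reversed in unstimulated cells (0.14), and the differences between the states were reversed for Ctsd (−0.19), Ctss (−0.14) and Ctsz (−0.17), since the shift between the 2 zero points enters each of them. These 3 exceeded 2 counting SE when centred. The sign also turned for Ctsa (−0.20), Ctsb (−0.22), Ctsk (−0.16) and Ctsl (−0.22), whose centred differences were within 2 counting SE. The background restricted to precise genes was added after seeing the data. No paired analysis was possible because each group has 1 library. Differences below the spread between cultures cannot be judged without replicates.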
